A study of Oryza sativa with 14 samples.

Results

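The 6 rice genes described here make, perceive or transmit gibberellin, and were chosen by locus identifier from the 38978 genes of an RNA-seq table. They are GA20ox1 (Os03g0856700), SD1, also called GA20ox2 (Os01g0883800), GA3ox2 (Os01g0177400), GID1 (Os05g0407500), GID2 (Os02g0580300) and SLR1 (Os03g0707600). RNA came from seedlings of wild type rice (WT, genotype Kitaake) and of osnat10, a genotype named after N-acetyltransferase 10, the enzyme that acetylates cytidine in RNA. Both were grown on Yoshida solution under daily cycles of 10 h light and 14 h dark, and each genotype had 3 biological replicates. The sources used here do not give the kind of osnat10 allele, the age of the seedlings or the number of plants per library. No gene description in the table names the enzyme, so the level of the targeted gene was not analysed here.

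Gibberellins are diterpenoid hormones that promote stem and leaf elongation and the germination of cereal grains. GA 20-oxidases and GA 3-oxidases carry out the last steps of synthesis, and GA 2-oxidases inactivate the product. The active hormone binds the soluble receptor GID1, the occupied receptor binds the DELLA protein SLR1, a repressor of growth, and the F-box protein GID2 then directs SLR1 to the proteasome. Levels are given as RPKM, read numbers divided by gene length and by library total, which allows genes of different length to be compared.

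Whole reads per gene could be recovered from the steps of the RPKM values, and the libraries held 13688629 to 15583776 reads over genes. WT replicate 1 stood apart from the other WT libraries in genes of the light-harvesting antenna. CAB1R, an antenna protein gene, stood at 1064 RPKM there, against 5.10 in WT replicate 2, 10.9 in WT replicate 3 and 337 to 428 in osnat10. Among tissue markers, the summed RPKM of 4 leaf genes (RbcS3, CAB1R, CAB2R and OsLFNR2) ran from 2376 to 6457 in WT and from 3431 to 3889 in osnat10. The summed RPKM of 4 root genes (RCc3, RCc2, LSI1 and LSI2) ran from 407 to 743 in WT and from 855 to 989 in osnat10, and did not overlap, mostly through RCc3, whereas LSI1 and LSI2 overlapped between genotypes. Of the meristem markers, OSH1 was listed at 0 in all 6 libraries, and OSH15 stood at 0.394 to 1.85 RPKM in WT and 2.23 to 2.60 in osnat10. Of 20 genes whose descriptions mention glutelin, the storage protein of the grain, 10 were listed at 0 in all libraries, GluB1 and GLUD1 among them. The summed RPKM of these 20 rows ran from 328 to 463 in WT and from 543 to 586 in osnat10, mostly from ESP2 and SIP34. A description that mentions glutelin does not make a row a glutelin gene, so this sum is not a level of storage protein transcripts. Among the rows with the symbols Glua1, Glua2, Glua3 and GluC, the highest value was 2.74 RPKM (Glua2, WT replicate 2). Both leaf and root RNA was thus present in each library. In whole seedlings, fewer cells of a type and less RNA per cell cannot be told apart, and the part of tissue makeup in the differences below was not tested.

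The annotation of 1 of the 6 genes went against its name. The row with the symbol GID2 is described as similar to 14-3-3 protein 6, a member of a family of phosphoprotein-binding adaptors, and not as an F-box protein. In the RefSeq gene table of rice (assembly ASM3414082v1), 3 gene entries that all overlap each other on chromosome 2 carry the names GID2 or GF14E, the latter a 14-3-3 gene. The gene length behind the RPKM of the row, recovered from the read steps, was 2630 bp. Whether reads of the row came from the F-box gene, from the 14-3-3 gene or from both cannot be told apart here, and it is called the GID2/14-3-3 row below.

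Across the 6 genes, GID1, SLR1 and the GID2/14-3-3 row were far more abundant than the synthesis genes. In WT, GID1 stood at 55.0 ± 14.2 RPKM (SD, n = 3 for all means here), SLR1 at 35.5 ± 3.57 and the GID2/14-3-3 row at 33.1 ± 3.50, with GA20ox1 at 13.2 ± 3.50, SD1 at 2.35 ± 1.32 and GA3ox2 at 0.159 ± 0.139. SLR1 and the GID2/14-3-3 row did not differ beyond their spread in WT. Of GID1, SLR1 and the GID2/14-3-3 row, GID1 was the highest in each WT library and the lowest in each osnat10 library. The GID2/14-3-3 row stood at 50.9 ± 0.433 RPKM, SLR1 at 42.7 ± 1.46 and GID1 at 38.0 ± 1.99, in this order in each of the 3 libraries. GA20ox1 followed at 9.32 ± 1.33 RPKM, and GA3ox2 at 0.605 ± 0.192 and SD1 at 0.517 ± 0.169 overlapped. By mean RPKM over all libraries, GID1 lay above 90.9% of the 24380 genes tested and SD1 above 16.1% of them.

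**Figure D1:**
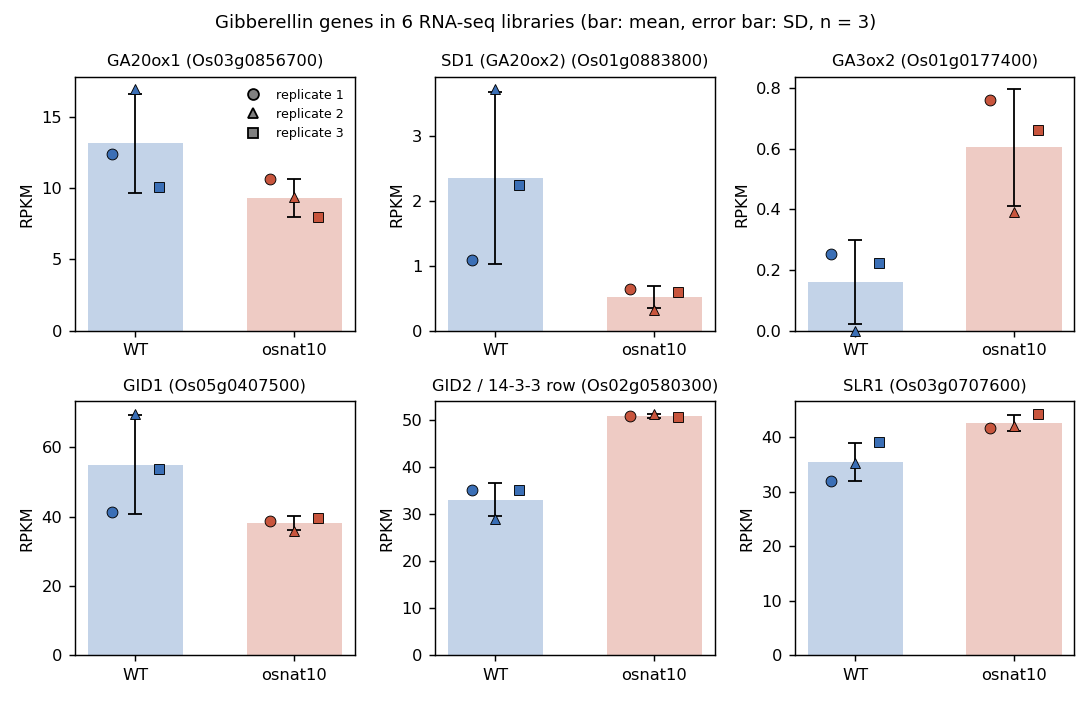
RPKM (linear axis from 0, a scale of its own in each panel) of the 6 gibberellin genes in 3 WT and 3 osnat10 libraries. Bars are means, error bars SD and symbols single libraries; the genotypes overlap in GA20ox1, where WT replicate 3 stood at 10.1 and osnat10 replicate 1 at 10.6.

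The comparison of osnat10 with WT asked whether transcripts of the pathway differ when the acetyltransferase gene is affected. In osnat10, SD1 lay lowest relative to WT, GID1 and GA20ox1 lay moderately lower, the GID2/14-3-3 row lay higher and SLR1 slightly higher. None of these differences passed the threshold in limma, a linear model over all genes with moderated variances, at a Benjamini-Hochberg adjusted p under 0.05. By this rule 0.152% of all tested genes were called, 30 higher and 7 lower in osnat10. At an unadjusted p under 0.05, 3 of the 5 genes that passed the filter on low values (RPKM of at least 0.5 in 3 or more libraries) and 19.2% of all tested genes qualified. In the authors' deposited table, made with another method, the adjusted p was under 0.05 for SD1 and GID1, both lower in osnat10, and for 6.20% of the genes with an adjusted p there. The RPKM ranges of WT and osnat10 did not overlap for 5 of the 6 genes, beside 21.4% of all genes with any read. Among the 5 that passed the filter, 2 lay higher in osnat10 without overlap, beside 17.2% of all tested genes, and 2 lay lower, beside 7.79%, or 25.0% in either direction.

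SD1 encodes a GA 20-oxidase whose loss of function gave the semi-dwarf rice of the green revolution. Its RPKM was 1.08, 3.71 and 2.24 in WT replicates 1, 2 and 3, and 0.635, 0.323 and 0.591 in osnat10 replicates 1, 2 and 3. All WT libraries thus lay above all osnat10 libraries, and WT replicate 1 was the closest to them. These values rest on 29, 107 and 68 reads in WT and on 17, 9 and 17 reads in osnat10. Summed over libraries there were 204 reads in WT (95% Poisson interval 177 to 234) and 43 in osnat10 (31.1 to 57.9), intervals that cover counting error only. The mean RPKM was 4.54-fold higher in WT. The limma log2 fold change on the log2(RPKM + 0.5) scale, which understates differences of low genes, was -1.39 (SE 0.38, 95% interval -2.28 to -0.50, adjusted p = 0.13), and the exact permutation p over the 6 libraries was 0.1, the smallest that 3 against 3 allows. In the authors' deposited table the log2 fold change was -2.25 (SE 0.56, adjusted p = 0.0028). Without WT replicate 1 the limma log2 fold change was -1.76 (adjusted p = 0.020). That fit called 11.1% of all tested genes and 3 of the 5 genes described here that it tested (SD1, GID1 and the GID2/14-3-3 row). With library weights the log2 fold change of SD1 was -1.55, in a fit that called 5.55% of all tested genes and 2 of the 5 (SD1 and the GID2/14-3-3 row). For SD1, over 15 alternatives, the adjusted p ran from 0.020 to 0.40.

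GA20ox1, a second GA 20-oxidase gene, was the more abundant of the pair. Its RPKM was 12.4, 17.0 and 10.1 in WT and 10.6, 9.38 and 7.96 in osnat10. The highest osnat10 library exceeded the lowest WT library, so the genotypes overlapped. The log2 fold change was -0.45 (SE 0.23, 95% interval -0.99 to 0.08, limma adjusted p = 0.33), and the adjusted p in the authors' deposited table was 0.196. Of the 12 loci next to the 6 genes in locus number, 9 passed the filter and 0 were called in limma, beside 0.152% of all tested genes. In 4 of these 9 the genotypes did not overlap, beside 25.0% of all tested genes. Beside GA20ox1, Os03g0856500, described as similar to a plastid-specific ribosomal protein, ran from 433 to 1019 RPKM in WT and from 161 to 185 in osnat10. Its log2 fold change was -2.10 (limma adjusted p = 0.058), and -2.27 (adjusted p = 1.0e-11) in the authors' deposited table. The other 8 had log2 fold changes of -0.24 to 0.54.

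The 20-oxidase genes were also set against each other within each library. The ratio of SD1 to GA20ox1 was 0.087, 0.219 and 0.223 in WT and 0.060, 0.034 and 0.074 in osnat10, without overlap (exact permutation p = 0.1, the smallest possible). This ratio was not among the planned comparisons, and it shows unequal difference and not which gene differed. Together with GA20OX4 and OsGA20ox7, the other genes of this class that passed the filter, the summed 20-oxidase RPKM was 17.5, 29.5 and 19.4 in WT and 16.4, 13.8 and 13.2 in osnat10. SD1 made up 10.1% ± 3.44 of this sum in WT and 3.57% ± 1.10 in osnat10. GA20OX4 was singled out once its values were known. Its RPKM was 1.01, 2.52 and 3.29 in WT and 0.368, 0.310 and 0.214 in osnat10. Its limma log2 fold change was -1.70 (SE 0.37, adjusted p = 0.093), and the authors' deposited table lists it at -3.01 (adjusted p = 1.6e-04). It rests on 162 reads in WT and 20 in osnat10. OsGA20ox7 stood at 4.36 ± 1.71 and 4.33 ± 0.540 RPKM, and its log2 fold change of 0.04 changed sign under both other scalings.

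**Figure D2:**
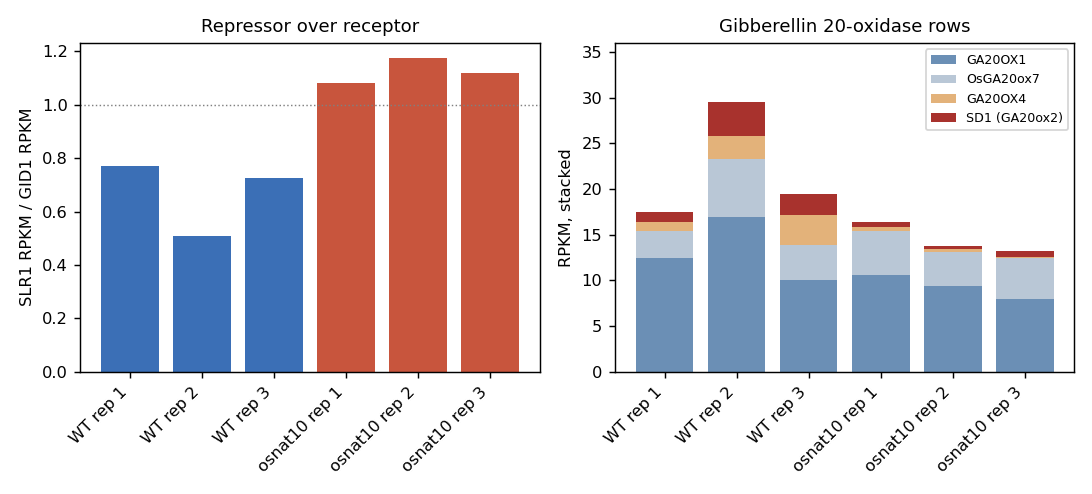
Left, RPKM of SLR1 divided by RPKM of GID1 in each library; right, stacked RPKM of the 4 GA 20-oxidase genes that passed the filter (linear axes from 0). The ratio is 0.507 to 0.772 in WT and 1.08 to 1.17 in osnat10, and the SD1 and GA20OX4 segments are smaller in each osnat10 library than in any WT library.

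GA3ox2, listed under the symbol D18, encodes the enzyme that makes bioactive gibberellin. It was close to the limit of detection. Its RPKM was 0.253, 0 and 0.224 in WT and 0.762, 0.391 and 0.662 in osnat10. Every osnat10 library lay above every WT library, and WT replicate 2 had no read. The read numbers were 5, 0 and 5 in WT and 15, 8 and 14 in osnat10, or 10 (95% Poisson interval 4.80 to 18.4) and 37 (26.1 to 51.0) in all. In WT replicate 2 the count of 0 was read against a fixed floor of 3 reads, or 0.141 RPKM. The upper limit of its 95% Poisson interval was 3.69 reads. GA3ox2 did not pass the filter on low values. In the limma fit with no filter its log2 fold change was 0.75 with an adjusted p of 0.19, and the authors' deposited table gives 1.78 (SE 1.06, adjusted p = 0.36). The exact permutation p was 0.1, the smallest possible. GA3OX1 and Os04g0517600, also described as GA 3beta-hydroxylases, were listed at 0 in all libraries, as was GA20OX3.

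GID1, the only receptor among the 6 genes, was the most abundant of them in WT. Its RPKM was 41.4, 69.8 and 53.8 in WT and 38.6, 35.8 and 39.7 in osnat10. The genotypes did not overlap, yet WT replicate 1 lay 1.70 RPKM above the highest osnat10 library, while the WT libraries spanned 28.4 RPKM. The log2 fold change was -0.50 (SE 0.21, 95% interval -0.97 to -0.02, limma adjusted p = 0.25). The authors' deposited table lists -0.62 (SE 0.21, adjusted p = 0.045). Without WT replicate 1 the limma log2 fold change was -0.68 (adjusted p = 0.037), and without WT replicate 2 it was -0.31 (adjusted p = 0.44).

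Relative to its mean, the GID2/14-3-3 row had the narrowest spread of the 6 genes in osnat10. Its RPKM was 35.1, 29.0 and 35.1 in WT and 50.7, 51.4 and 50.5 in osnat10. All osnat10 libraries lay above all WT libraries, with a mean 1.54-fold higher. The log2 fold change was 0.62 (SE 0.15, 95% interval 0.28 to 0.96, limma adjusted p = 0.11), and 0.51 (SE 0.21, adjusted p = 0.13) in the authors' deposited table. Without WT replicate 1 the limma adjusted p was 0.027, and with library weights it was 0.039. Of the other 5 genes described as 14-3-3 proteins, GF14C and GF14F were likewise higher in every osnat10 library than in any WT library, as were 17.2% of all tested genes. GF14C averaged 52.5 ± 1.77 RPKM in WT against 88.6 ± 7.43 in osnat10 (log2 fold change 0.75, SE 0.14, limma adjusted p = 0.081). GF14F averaged 199.7 ± 12.7 and 249.6 ± 6.72 (limma adjusted p = 0.31). In the authors' deposited table GF14C stood at 0.64 (adjusted p = 0.019), and the adjusted p of GF14F was 0.46. GF14B, GF14G and GF14h overlapped between genotypes.

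SLR1 encodes the DELLA repressor of rice. Its RPKM was 32.0, 35.4 and 39.1 in WT and 41.7, 42.1 and 44.4 in osnat10. The genotypes did not overlap, and the gap of 2.56 RPKM between them was smaller than the range of 7.13 within WT. The log2 fold change was 0.27 (SE 0.15, 95% interval -0.07 to 0.61, limma adjusted p = 0.36), and 0.16 (SE 0.16, adjusted p = 0.65) in the authors' deposited table. The median log2 fold change of all tested genes was 0.11 for the values as deposited and 0.01 after median of ratios scaling, where that of SLR1 was 0.16. The ratio of SLR1 to GID1 was 0.772, 0.507 and 0.727 in WT and 1.08, 1.17 and 1.12 in osnat10. The ratio lay below 1 in every WT library and above 1 in every osnat10 library, a mean log2 difference of 0.77 (exact permutation p = 0.1, the smallest possible). This ratio was chosen after the values were seen, does not depend on library scaling, and shows unequal difference only.

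**Figure D3:**
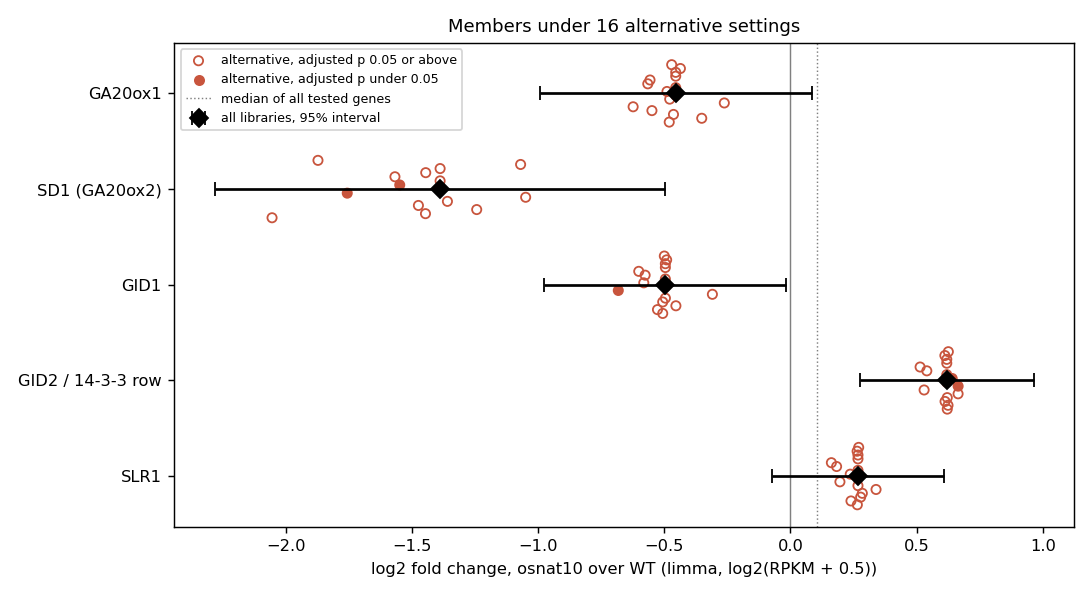
Limma log2 fold change (osnat10 over WT) of the 5 gibberellin genes that passed the filter. Diamonds with 95% intervals use all 6 libraries and circles the alternative settings, filled at an adjusted p under 0.05; every circle of a gene lies on the same side of 0, and SD1, GID1 and the GID2/14-3-3 row have filled circles.

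The rest of the pathway was read from 71 genes grouped by role through words in their symbols and descriptions. Of these, 42 passed the filter and 9 were listed at 0 in every library. None was called in limma over all genes, where 0.123% of genes were called higher and 0.0287% lower. At an unadjusted p under 0.05, 10 of the 42 were higher and 7 lower, beside 13.6% and 5.69% of all tested genes. In the authors' deposited table, 3 of 51 with an adjusted p were called higher and 6 lower, beside 2.42% and 3.79% of all genes there.

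Of 18 synthesis genes 11 passed the filter. The log2 fold change was negative in 8 of the 11, beside 40.1% of all tested genes. The median of the 11 was -0.75, beside 0.11 for all tested genes. The 8 include the defence-related OsCPS4 and KO4. They also include OsKS7 and OsKSL10, named here with their values known, which were highest in WT replicate 3, at 3.14 and 3.37 RPKM. The list rests on words in symbols and descriptions and holds genes of other diterpenoids. Its median is therefore not a measure of gibberellin synthesis alone. The authors' deposited table called 4 of the 12 with an adjusted p lower and 0 higher, beside 3.79% and 2.42% of all genes there, and the 4 were d35, GA20OX4 and the defence-related OsCPS4 and KO4. The gene d35, an ent-kaurene oxidase of an early step, stood at 13.7, 23.6 and 16.1 RPKM in WT and 10.6, 10.7 and 8.99 in osnat10. Its groups did not overlap, with a limma log2 fold change of -0.75 (SE 0.23, adjusted p = 0.15) and -0.91 (adjusted p = 0.0088) in the authors' deposited table. Other genes of the list are known for defence rather than for gibberellin. OsCPS4, a synthase of the syn-copalyl precursor of phytoalexins, stood at 0.766, 4.23 and 9.13 RPKM in WT and 1.57, 0.201 and 1.10 in osnat10 (limma adjusted p = 0.30, and 0.043 in the authors' deposited table). KO4, annotated with diterpenoid phytoalexin synthesis and picked with its values known, stood at 2.26 ± 1.28 and 0.414 ± 0.182 RPKM (limma adjusted p = 0.13, and 0.0013 in the authors' deposited table). OsCPS1, which makes the ent-copalyl precursor of gibberellin and was likewise singled out, stood at 0.777 ± 0.481 and 0.413 ± 0.235 RPKM with overlap (limma adjusted p = 0.51). The ent-kaurene oxidase-like gene Os06g0570566 had 9.02, 0.0892 and 0 RPKM in the WT libraries against 7.30, 2.59 and 1.25 in osnat10, so WT replicate 1 was the high library there. The kaurene oxidase genes are close copies in neighbouring loci, and the sources used here do not say how reads were shared among them.

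**Figure D4:**
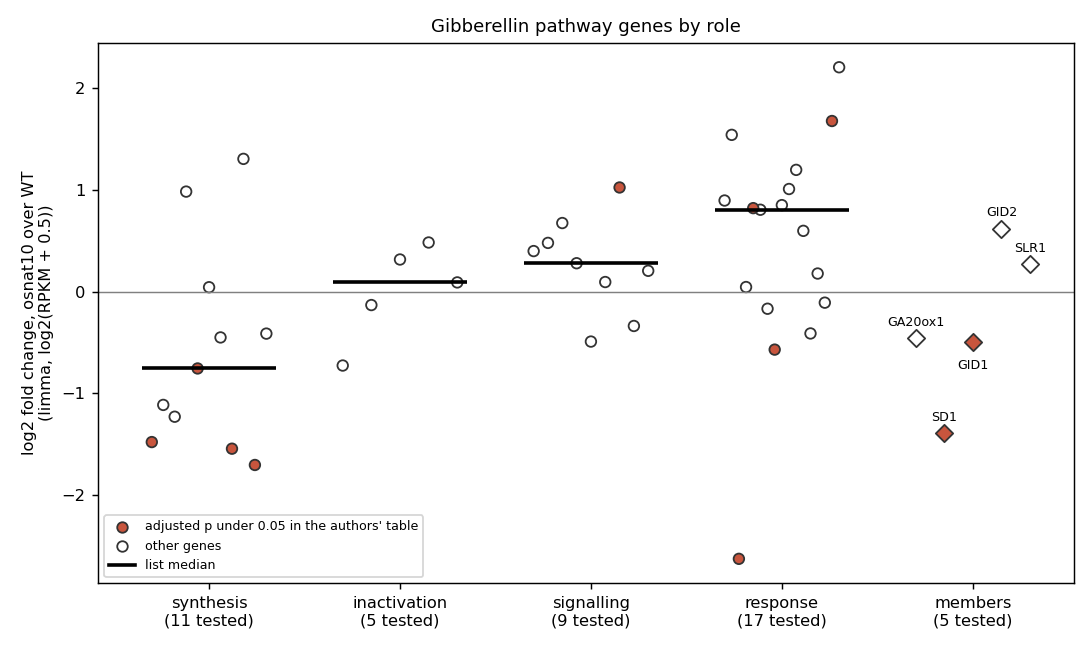
Limma log2 fold change (osnat10 over WT, log2(RPKM + 0.5) scale) of the gibberellin pathway genes that passed the filter, by role, with the 5 members at the right. Filled symbols had an adjusted p under 0.05 in the authors' deposited table, bars are list medians (-0.75 for synthesis and 0.80 for response), and no symbol was called in limma. The synthesis list includes the defence-related OsCPS4 and KO4.

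Inactivation genes were few and low. Of 13 genes 5 passed the filter, with 3 positive and 2 negative log2 fold changes and a median of 0.09. GA2OX3, a GA 2-oxidase, averaged 2.58 ± 0.655 RPKM in WT against 1.37 ± 0.450 in osnat10, with overlap (log2 fold change -0.73, SE 0.30, limma adjusted p = 0.24). EUI1, a cytochrome P450 that deactivates gibberellin, stood at 1.43 ± 0.215 and 2.25 ± 0.685 RPKM, also with overlap (limma adjusted p = 0.38). The GA 2-oxidase-like genes Os05g0158700 and Os05g0208550 overlapped between genotypes, with WT means of 0.929 ± 0.260 and 0.799 ± 0.363 RPKM and osnat10 means of 1.01 ± 0.214 and 0.681 ± 0.344. The sign of their log2 fold changes, 0.09 and -0.13, depended on the setting.

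Of 13 signalling genes besides the 6 members, 9 passed the filter. The log2 fold change was positive in 7 of the 9, beside 59.9% of all tested genes, and the median was 0.28, beside 0.11. GID1L2 (Os06g0214800), an alpha/beta hydrolase gene named for its likeness to the receptor, stood at 19.0, 19.1 and 14.7 RPKM in WT and 33.7, 35.3 and 39.5 in osnat10. That is a mean 2.05-fold higher, with no overlap (log2 fold change 1.02, SE 0.17, limma adjusted p = 0.066), and the authors' deposited table gives 0.92 (adjusted p = 0.0044). Os06g0214850, described as a GID1L2-like receptor with the next locus number, stood at 24.8 ± 1.20 and 40.0 ± 5.51 RPKM (limma adjusted p = 0.10). The alpha subunit gene of the heterotrimeric G protein, D1, stood at 34.2 ± 9.19 and 44.2 ± 2.54 RPKM (limma adjusted p = 0.34). SPY, a glycosyltransferase that restrains gibberellin signalling, stood at 26.3 ± 3.75 and 28.0 ± 2.93 RPKM (log2 fold change 0.09, limma adjusted p = 0.80). OsSLRL1, a DELLA-like gene picked with its values known, stood at 2.15 ± 1.44 and 2.88 ± 0.317 RPKM with overlap. A second row with the symbol GID1, Os03g0790500, is an alpha/beta hydrolase gene, also named here with its values known. It stood at 0.555, 5.56 and 0.830 RPKM in WT and 0.812, 1.77 and 0.915 in osnat10, with overlap (limma adjusted p = 0.81).

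Response genes lay on both sides of 0. Of 27 genes 17 passed the filter, 12 with a positive log2 fold change, beside 59.9% of all tested genes, and the median was 0.80, beside 0.11. OsGSR1, a gibberellin-stimulated gene of the GAST family, stood at 36.6, 41.8 and 51.6 RPKM in WT and 81.6, 67.5 and 80.1 in osnat10. Its groups did not overlap (log2 fold change 0.82, SE 0.18, limma adjusted p = 0.093), and the authors' deposited table gives 0.72 (adjusted p = 0.010). SAP11, a gibberellin-induced zinc-finger gene, stood at 130.4 ± 37.8 and 85.2 ± 1.61 RPKM (log2 fold change -0.57, limma adjusted p = 0.23, and adjusted p = 0.031 in the authors' deposited table). CIGR2, a chitin-inducible gibberellin-responsive gene, stood at 33.4 ± 5.14 and 24.9 ± 1.95 RPKM (limma adjusted p = 0.24). GASR1 stood at 21.2 ± 10.7 and 20.6 ± 5.41 RPKM, and the sign of its log2 fold change of 0.04 changed with the scaling. GASR2, of the same family and picked with its values known, had 5.36, 4.37 and 27.2 RPKM in WT and 38.6, 15.7 and 30.3 in osnat10, so WT replicate 3 was the high WT library.

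The lowest log2 fold change of the lists was that of an alpha-amylase gene. Alpha-amylases break down starch and are the textbook gibberellin-induced products of germinating grain, although isozyme 3D is known chiefly for its induction by sugar starvation. The isozyme 3D gene Os08g0473900, picked with its values known, had 2.57, 5.78 and 7.72 RPKM in WT and 0.270, 0.518 and 0.362 in osnat10. All WT libraries lay above all osnat10 libraries, by 586 reads to 40 in all. The limma log2 fold change was -2.62 (SE 0.38, adjusted p = 0.055), and the authors' deposited table gives -3.87 (adjusted p = 3.0e-12). The other alpha-amylase genes that passed the filter, likewise picked with their values known, overlapped between genotypes. Os04g0403300, the most abundant, had 3.67, 14.9 and 9.42 RPKM in WT against 9.80, 6.90 and 6.19 in osnat10 (log2 fold change -0.11, limma adjusted p = 0.92). The isozyme 2A gene Amy2A, at a mean of 1.03 RPKM, had a log2 fold change of 0.60 (limma adjusted p = 0.39), while AMY1A was listed at 0 in every library.

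**Figure D5:**
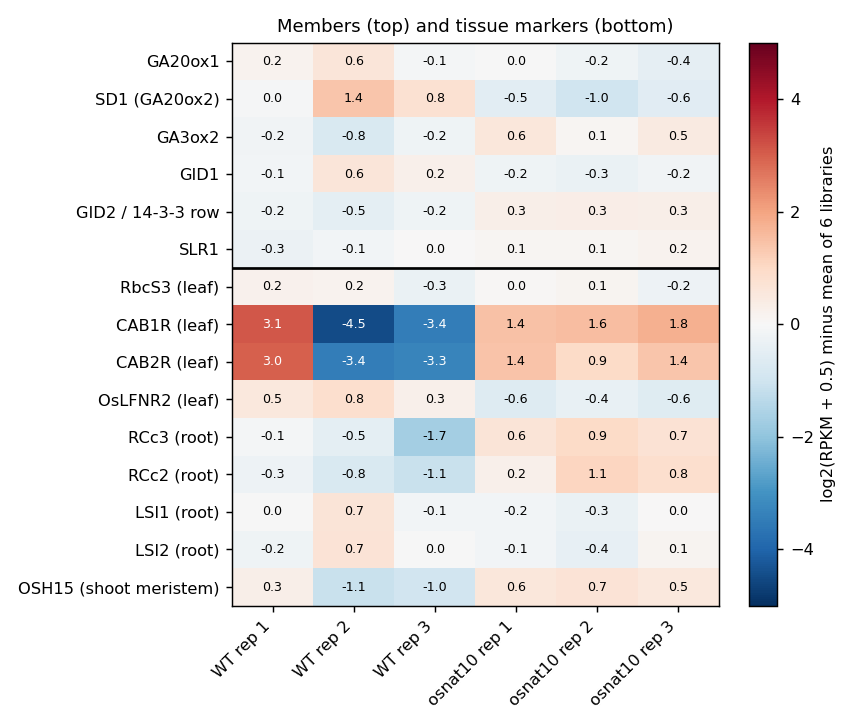
Log2(RPKM + 0.5) minus the mean of the 6 libraries for the 6 gibberellin genes (above the line) and for leaf, root and meristem markers (below it). CAB1R and CAB2R set WT replicate 1 apart from WT replicates 2 and 3, and in WT SD1 and GID1 are lowest in replicate 1.

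Across the WT libraries, CAB1R was highest in replicate 1 and lowest in replicate 2. GA3ox2 and the GID2/14-3-3 row were also lowest in WT replicate 2. Between WT replicates 1 and 3 they were about level, with 5 reads in each for GA3ox2 and 35.1 RPKM in each for the GID2/14-3-3 row. SD1 and GID1 had the inverse of the CAB1R order. SLR1 was lowest in WT replicate 1 and highest in WT replicate 3, and GA20ox1 was intermediate in WT replicate 1. Between genotypes, the leaf marker OsLFNR2, a ferredoxin-NADP reductase gene, ran from 267 to 401 RPKM in WT and from 142 to 172 in osnat10. Like SD1 and GID1, it was lower in every osnat10 library than in any WT library, as were 7.79% of all tested genes. The leaf markers RbcS3, CAB1R and CAB2R overlapped between genotypes. The root markers RCc3 and RCc2 and the meristem marker OSH15 were higher in every osnat10 library than in any WT library. So were the GID2/14-3-3 row and SLR1, beside 17.2% of all tested genes. GA3ox2, which did not pass the filter and is not covered by that share, was likewise higher in every osnat10 library. Of all genes with any read, 21.4% did not overlap in either direction. RCc3 stood at 320, 245 and 107 RPKM in WT and 534, 667 and 568 in osnat10. The root silicon transporter genes LSI1 and LSI2 overlapped between genotypes, at 169 to 291 and 145 to 186 RPKM for LSI1. The part of leaf, root or meristem RNA in the differences of the gibberellin genes was not tested.

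Among all tested genes, those most like each member that passed the filter were taken by Pearson's r of log2(RPKM + 0.5). This is a description over 6 points that fall into 2 genotypes. The values of r are high by selection, as the highest among 24380 genes, and shared regulation was not tested. GID1 was followed most closely by OsCAF1A, a deadenylase component of the CCR4-NOT complex (r = 0.9985), and by a methionine aminopeptidase-like gene, Os12g0628500 (r = 0.997). SLR1 was followed by a glycosyltransferase gene, Os03g0330000 (r = 0.9993), and by the proteasome subunit gene OsPAD1 (r = 0.9985). The GID2/14-3-3 row was followed by the RING-type zinc finger gene Os01g0703300 (r = 0.9965) and the calmodulin-like gene OsCML7 (r = 0.995). SD1 was followed by the kinase gene OsRLCK251 (r = 0.998) and a transposase gene, Os06g0271400 (r = 0.997), and GA20ox1 by OsMGT, similar to MRS2-5 (r = 0.993), and the transporter gene OsABCG38 (r = 0.991).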

How the data were processed

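Seedling RNA of WT and osnat10 was measured by RNA-seq in 3 libraries each, with single-end reads of 150 bp per the labels' protocols. No use was made of the 8 acRIP-seq libraries. The authors deposited RPKM for 38978 genes and, per the file headers, a DESeq2 comparison table for 32190 genes. That table holds the authors' mean normalised signal, their log2 fold change with its standard error, a Wald score and p-values. The authors' log2 fold change has the sign of the RPKM difference (osnat10 minus WT) in each of the 1681 genes called there, whereas the authors' Wald score has the opposite sign throughout and was left out. Per the submitters' processing notes, STAR 2.5.3a, DESeq2, deepTools and the build IRGSP-1.0 were used, with no role given. The sources used here do not give the read counter, its use of strand or the annotation release, so reads of overlapping genes and close copies cannot be assigned with certainty. The reference gene table is of another assembly and served for names only.

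Reads and gene lengths were recovered from RPKM steps and the authors' mean signal. Of the RPKM values above 0, 99.98% gave whole reads within 0.05 reads. Log2(RPKM + 0.5) values were fitted in limma 3.58.1 (R 4.3.3, empirical Bayes with an intensity trend) on 24380 genes with RPKM of at least 0.5 in 3 or more libraries, without covariates, and p-values were adjusted by Benjamini-Hochberg over all of them. Exact permutation tests were two-sided. The series' design text calls the replicates biological without saying whether plants were grown apart, so p-values measure only the spread between these libraries. Python 3.11.15, scipy 1.17.1 and matplotlib 3.10.9 were used.

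The 6 members and the gene lists were chosen with earlier results of these data known. Named are the members, the 4 most abundant genes of each list and any called gene, the 2 genes most like each member, neighbouring loci and, where stated, genes singled out after their values were seen. The 14-3-3 genes were likewise added after the description of the GID2 row was seen. From the lists, 21 genes were left out by their descriptions, 19 for amylase inhibitor domains and 2 for ribosomal proteins. Alternatives were other pseudocounts, filters and scalings, no intensity trend, library weights, the replicate number as a block, each library left out, and limma voom on the recovered reads, the last chosen after seeing the data.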

Additional observations from a re-analysis of the deposited data

How the results depend on the processing

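These results rest on 6 libraries of unequal spread, and those of GA3ox2 and SD1 also on few reads. Over all genes, 37 were called, 108 after median of ratios scaling (51 higher and 57 lower), 11 with RPKM of 1 or more in all libraries, 1352 with library weights, 21 with voom, and 8 to 2713 without 1 library. Of the 5 members that passed the filter, 0 were called, 2 with library weights (SD1 and the GID2/14-3-3 row) and 0 to 3 without 1 library. The 3 were SD1, GID1 and the GID2/14-3-3 row without WT replicate 1, the library nearest to osnat10 in SD1 and GID1. Other pathway genes numbered 0 called, 1 after either other scaling (the isozyme 3D amylase gene), 6 with library weights and 0 to 12 without 1 library, with 12 without WT replicate 1 and 7 without WT replicate 3. No tested member changed sign under any of these alternatives, with log2 fold changes of -2.05 to -1.05 for SD1, -0.62 to -0.26 for GA20ox1, -0.68 to -0.31 for GID1, 0.51 to 0.66 for the GID2/14-3-3 row and 0.16 to 0.34 for SLR1. SD1 did not pass the stricter filter and GA3ox2 was fitted with no filter only.

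With the replicate number as a block, 20 genes and 0 members were called. The number is not shown to pair the samples, since same-numbered deviations from the group means correlated at -0.059, -0.026 and 0.126.

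Reversed signs were seen in named genes near 0. After median of ratios scaling, quantile normalisation and library weights, OsGA20ox7 stood at -0.050, -0.12 and -0.052 and GASR1 at -0.058, -0.041 and -0.10 (log2). Without 1 library they ran from -0.17 to 0.31 and from -0.35 to 0.40. SPY stood at -0.011 after median of ratios scaling and -0.028 to 0.18 without 1 library, and Os05g0158700 at -0.095 after quantile normalisation and -0.042 to 0.22. Without 1 library Os05g0208550 ran from -0.39 to 0.011, GF14B from -0.32 to 0.013 and the alpha-amylase gene Os04g0403300 from -0.63 to 0.31. The cause of these changes was not tested.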
